A study of Mus musculus with 13 samples.

Results

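The 10 genes described here are a named group of the Wnt pathway: the ligands Wnt10a and Wnt10b, the secreted antagonists Sfrp5 and Dkk2, the receptors Lrp5, Lrp6 and Lgr5, and the response genes Axin2, Tcf7 and Lef1. They were taken by symbol from 34709 genes measured by RNA-seq in 13 libraries of whole lower incisors, and all 10 were among the 17837 genes with enough counts to test. The libraries came from male mice on postnatal day 5. There were 3 libraries of VDRgem mutants, 5 of VDR-null mutants and 5 of controls, and no treatment is labelled for any of them. The mutants differ from controls in Vdr, the gene of the vitamin D receptor: as background, the VDRgem receptor answers to synthetic gemini ligands but no longer to natural vitamin D hormone, whereas no functional receptor is made in VDR-null mice. The labels give no strain, no construct, no litter and no animal behind each library, so the p-values speak only of variation among these teeth.

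Wnt ligands bind Frizzled receptors together with Lrp5 or Lrp6. This halts the destruction complex, a protein assembly that includes Axin2, and lets beta-catenin reach the TCF/LEF factors on DNA, among them the products of Tcf7 and Lef1. Sfrp proteins bind the ligands outside the cell, Dkk proteins bind Lrp5 and Lrp6, and Lgr5 binds R-spondins, which keep Wnt receptors on the cell surface. In teeth, Wnt signals are needed for the early tooth bud, and Wnt10a is known from families with missing teeth. The mouse incisor grows throughout life, with dividing cells at its apical end.

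Levels are CPM, the counts of a gene relative to all counts of its library, after scaling by the trimmed mean of M values. A gene is said to have risen or fallen where edgeR's quasi-likelihood test, adjusted by Benjamini and Hochberg over all 17837 genes, gave a p under 0.05. Total counts ran from 20405188 to 87783466 per library. Vdr itself was at 107 to 205 CPM in VDRgem, 204 to 281 CPM in VDR-null and 142 to 180 CPM in controls. Which part of Vdr is altered is not given in the labels, so its level does not check them. Libraries stood apart within groups. Markers of keratinocytes, the cells of skin and oral lining, had a mean log2 CPM of 8.02, 6.08 and 2.59 in VDRgem 1, 2 and 3, against -0.97 to 1.13 in VDR-null and -0.57 to 3.01 in controls, with a summed level of 315 to 17478, 24.4 to 126 and 27.6 to 559 CPM, and at most 2 of the 14 markers at 0 in any library. The 8 skeletal muscle markers were at a mean log2 CPM of 1.40 to 4.39 in VDRgem, -2.01 to 5.70 in VDR-null and -0.84 to 1.38 in controls, highest in VDR-null 3 and VDRgem 1. Of these, 1 rose in VDRgem, where 4.8% of all tested genes rose, and none passed in VDR-null by edgeR, where 1.33% passed. The list medians of the log2 fold change were 2.63 and 3.29, and the part of muscle in the Wnt levels was not tested. The 15 cell cycle genes had a mean log2 CPM of 4.14 to 4.35 in VDRgem, 4.22 to 5.46 in VDR-null and 5.02 to 5.37 in controls. VDR-null 2 held the lowest cell cycle level of its group and was inside the range of VDRgem. Of markers of the tooth itself, odontoblast genes were at a mean log2 CPM of 11.8 to 12.2 in VDRgem, 11.3 to 12.4 in VDR-null and 11.4 to 12.0 in controls. Secretory ameloblast genes were at 10.2 to 11.0, 9.76 to 11.4 and 9.50 to 11.2 in the same groups, so both defining cell types of an incisor were present in every library.

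The promoters of 6 of the 10 genes were in the RefSeq table for GRCm38.p6, with 10 start sites between them. Wnt10a, Lrp5, Lrp6 and Lgr5 were not in it. The promoters shown are those of the pair of genes that rose in VDRgem, Wnt10b and Dkk2, and of 2 of the 4 that fell, Sfrp5 and Axin2, because these carry the opposite directions described below. Each runs 5′ to 3′ on the strand of its gene from 250 bases before the start to 50 after it: Wnt10b on the minus strand of chr15:98778101-98778400, Dkk2 on the plus strand of chr3:132085042-132085341, Sfrp5 on the minus strand of chr19:42202203-42202502 and Axin2 on the plus strand of chr11:108920099-108920398. Capitals mark a match, on either strand, to the TCF/LEF core CTTTG, to AGGTCA or its variants AGTTCA and also GGTTCA, hexamers of the kind that nuclear receptors bind, to the TATA box TATAAA or to the GC box GGGCGG.
Wnt10b: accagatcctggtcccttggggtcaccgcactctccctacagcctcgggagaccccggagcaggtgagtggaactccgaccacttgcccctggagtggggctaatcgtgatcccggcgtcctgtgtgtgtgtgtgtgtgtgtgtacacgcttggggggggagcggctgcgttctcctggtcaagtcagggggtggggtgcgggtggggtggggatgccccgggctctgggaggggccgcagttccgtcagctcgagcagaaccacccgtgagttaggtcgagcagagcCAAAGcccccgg
Dkk2: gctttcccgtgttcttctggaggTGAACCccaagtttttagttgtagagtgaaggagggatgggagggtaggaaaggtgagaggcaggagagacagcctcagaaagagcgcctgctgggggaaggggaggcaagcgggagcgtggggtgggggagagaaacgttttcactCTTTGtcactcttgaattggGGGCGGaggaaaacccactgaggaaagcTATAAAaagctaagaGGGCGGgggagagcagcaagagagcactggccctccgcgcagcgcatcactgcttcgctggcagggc
Sfrp5: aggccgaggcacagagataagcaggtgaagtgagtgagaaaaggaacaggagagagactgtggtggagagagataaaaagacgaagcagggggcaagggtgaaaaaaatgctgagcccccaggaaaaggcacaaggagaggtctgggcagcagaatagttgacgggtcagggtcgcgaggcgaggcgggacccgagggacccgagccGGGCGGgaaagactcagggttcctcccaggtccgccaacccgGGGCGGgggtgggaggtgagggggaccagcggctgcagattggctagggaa
Axin2: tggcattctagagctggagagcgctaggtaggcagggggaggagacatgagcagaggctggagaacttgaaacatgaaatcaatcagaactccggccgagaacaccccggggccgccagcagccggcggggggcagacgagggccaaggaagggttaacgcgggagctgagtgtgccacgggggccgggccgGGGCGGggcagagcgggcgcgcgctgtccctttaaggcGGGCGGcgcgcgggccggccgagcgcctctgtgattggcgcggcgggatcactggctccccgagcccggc
Dkk2 had the most kinds of match, with a TATA box beginning 32 bases before the start, a TCF/LEF core, a hexamer match and 2 GC boxes. Wnt10b had a TCF/LEF core after its start and no other match, while Sfrp5 and Axin2 had 2 GC boxes each and no TCF/LEF core. Of the genes that fell but are not shown, Lef1 had the core in each of its promoters and Tcf7 in none. Lef1 and Tcf7 each had more than a single start site among the 10 promoters. The Lef1 windows chr3:131110047-131110346 and chr3:131110073-131110372 overlap, so the same matches enter the counts below more than once. Over the 10 promoters, the core was in 6, against 53.9% of all 32851 mouse promoters of the table, and the GC box in 8, against 35.7%. The hexamers were in 4, against 35.0% of all promoters, and the TATA box in 3, against 13.6%. The longer TCF/LEF sites CTTTGAA and CTTTGAT, which contain the core, were in none of the 10 and in 8.65% of all promoters. No match says only that these letters are not in this window.

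In VDRgem incisors, 2 of the 10 genes rose and 4 fell relative to controls, where 4.8% and 3.82% of all tested genes did so. Wnt10b and Dkk2 rose, and Sfrp5, Tcf7, Lef1 and Axin2 fell. Each of the 6 had every VDRgem library outside the range of the controls, as did 19.3% of all tested genes in either direction. Wnt10a, Lrp5, Lrp6 and Lgr5 did not pass, and 7 of the 10 had an unadjusted p under 0.05, as did 23.9% of all tested genes. The median log2 fold change over the 10 genes was 0.10, against 0.00 over all tested genes. In VDR-null incisors none of the 10 passed against controls, where 1.33% of all tested genes passed. An unadjusted p under 0.05 by edgeR was seen there for 4 of the 10, as for 22.8% of all tested genes.

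**Figure D1:**
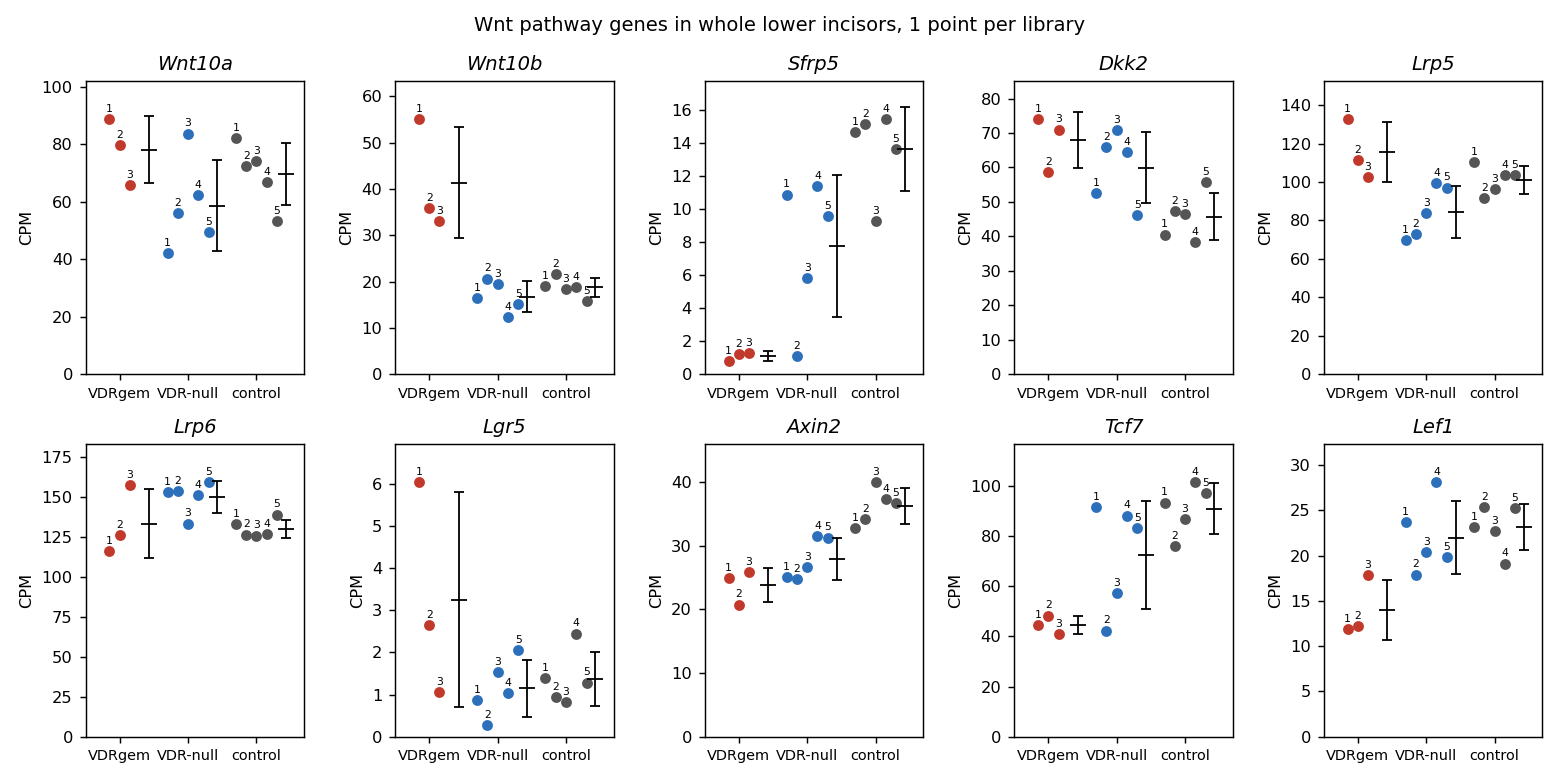
CPM of the 10 genes (vertical axes, from 0) in each library, with 1 point per library labelled by its number and a bar at the right of each group for the mean and SD (n = 3 VDRgem, 5 VDR-null and 5 control). In VDRgem, Wnt10b sits at 33.1 to 55.1 CPM, above every other library, and Sfrp5 at 0.767 to 1.29 CPM, below every control, with VDR-null 2 beside it at 1.11 CPM.

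Among the ligands, Wnt10b was 2.21-fold higher in VDRgem. This gene, whose product promotes bone formation in mice, is on chromosome 15 (mm10, minus strand) between 98770712 and 98778150. It was at 55.1, 35.8 and 33.1 CPM in VDRgem 1 to 3, against 19.0, 21.7, 18.4, 18.8 and 15.8 CPM in controls 1 to 5. The lowest VDRgem library was above the highest control. The means were 41.3 ± 12.0 CPM in VDRgem (SD, n = 3) and 18.7 ± 2.08 CPM in controls (SD, n = 5), a log2 fold change of 1.14 (SE 0.18, edgeR adjusted p = 0.0076). It was the only one of the 6 called genes that also passed in every fit that left out 1 library, where its adjusted p ran from 0.0011 to 0.0407. The keratinocyte markers had the same order over the VDRgem libraries as Wnt10b. By mean log2 CPM, so did the immediate early and stress, dental epithelium, dental papilla, apical bud epithelium and skeletal muscle lists. By summed CPM the apical bud list ran the other way, at 2713, 3208 and 3886 CPM in VDRgem 1 to 3. The dental papilla list was at 342, 382 and 351 CPM. The part of any of the lists named here in the level of Wnt10b was not tested. With VDRgem 3 as the only VDRgem library, Wnt10b was at a log2 fold change of 0.81 (edgeR adjusted p = 0.275). Wnt10b lies 860.1 kb from Vdr on the same chromosome. Of the 35 tested genes within 1 Mb of Vdr, Wnt10b included, 11.4% passed in VDRgem, against 8.62% of all tested genes.

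Wnt10a, on chromosome 1 from 74791516 to 74804179, is the closest relative of Wnt10b. It was at 88.6, 79.8 and 65.7 CPM in VDRgem, against 82.0, 72.2, 74.2, 66.9 and 53.1 CPM in controls. The groups overlapped, and the log2 fold change of 0.16 (SE 0.19, edgeR adjusted p = 0.653) was within its error. Dividing Wnt10b counts by Wnt10a counts needs no scaling between libraries, and gave 0.621, 0.449 and 0.504 in VDRgem, against 0.232 to 0.300 in controls. No VDRgem value fell among the controls. The exact two-sided permutation p was 0.0357, the smallest that 3 libraries against 5 can give, and 0.107 after adjustment over the 9 ratio tests made. The ratios were chosen after values were seen, which that adjustment does not cover. Per kilobase of merged exons, Wnt10a stayed the more abundant of the pair, at 31.6 ± 4.69 FPKM in VDRgem and 28.2 ± 4.35 FPKM in controls, against 12.2 ± 3.52 and 5.51 ± 0.612 FPKM for Wnt10b (SD, n = 3 and n = 5).

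The antagonists went in opposite directions in VDRgem. Sfrp5, which encodes a secreted protein that binds Wnt ligands and lies on chromosome 19 from 42197971 to 42202252, had the largest difference of the 10 genes. It was at 0.767, 1.21 and 1.29 CPM in VDRgem, against 14.7, 15.2, 9.26, 15.4 and 13.6 CPM in controls. The highest VDRgem library was far below the lowest control. The means were 1.09 ± 0.283 CPM in VDRgem (SD, n = 3) and 13.6 ± 2.54 CPM in controls (SD, n = 5), which is 12.4-fold lower in VDRgem on the fitted scale (log2 fold change -3.63, SE 0.58, edgeR adjusted p = 0.0082). Without VDRgem 1 the log2 fold change was -3.45, with an edgeR adjusted p of 0.0507.

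Dkk2, on chromosome 3 from 132085292 to 132180304, encodes a secreted protein that binds Lrp5 and Lrp6. It was at 74.0, 58.7 and 71.0 CPM in VDRgem, against 40.5, 47.3, 46.4, 38.3 and 55.8 CPM in controls. The groups did not overlap, although VDRgem 2 and control 5 were close. The log2 fold change was 0.57 (SE 0.15, edgeR adjusted p = 0.0291). This call was lost without VDRgem 1 (adjusted p = 0.153), VDRgem 3 (0.0515), control 1 (0.0658), control 2 (0.054) or control 4 (0.0649), and under scaling by library totals alone (0.0587). With that scaling 1 of the 10 genes rose and 4 fell, and the median of all genes in VDRgem moved by a log2 value of -0.17.

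The receptors did not pass against controls. Lrp5, on chromosome 19 from 3584828 to 3686564, and Lrp6, on chromosome 6 from 134446476 to 134566965, encode the co-receptors of the pathway. Lrp5 was at 133, 111 and 102 CPM in VDRgem and 91.8 to 110 CPM in controls (log2 fold change 0.19, SE 0.12, edgeR adjusted p = 0.368). Lrp6 was at 116, 126 and 157 CPM in VDRgem and 126 to 139 CPM in controls (log2 fold change 0.03, SE 0.09, edgeR adjusted p = 0.874). VDRgem 1 was the highest of its group for Lrp5 and the lowest for Lrp6.

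Lgr5, on chromosome 10 from 115450311 to 115587780, marks epithelial stem cells in several tissues. It had the lowest mean FPKM of the 10 genes in each group, although Sfrp5 was lower by mean CPM in VDRgem. FPKM divides by merged exons, which hold 10264 bases for Lgr5, against 4793 in its longest transcript. Its rank may change with the length used. Lgr5 was at 6.04, 2.64 and 1.06 CPM in VDRgem, against 1.39, 0.947, 0.832, 2.44 and 1.29 CPM in controls. VDRgem 1 and 2 were above every control and VDRgem 3 was among them, so the groups overlapped. The log2 fold change of 1.22 (SE 0.56, edgeR adjusted p = 0.206) became 0.39 without VDRgem 1 and 1.65 without VDRgem 3. Over the VDRgem libraries Lgr5 followed the order of the keratinocyte markers and, by mean log2 CPM, of the other lists named with Wnt10b. The part of these lists in its level was not tested.

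All 3 genes grouped at the start as response genes fell in VDRgem. Lgr5, grouped there with the receptors, is also in the wider list of response genes and did not pass. Axin2, a feedback inhibitor in the destruction complex and a widely used readout of Wnt signalling, lies on chromosome 11 from 108920349 to 108950783. It was at 25.0, 20.8 and 25.8 CPM in VDRgem, against 32.8, 34.2, 40.0, 37.3 and 36.7 CPM in controls. Every VDRgem library was below every control, and the log2 fold change was -0.60 (SE 0.11, edgeR adjusted p = 0.0105). Without VDRgem 1 it was -0.65 with an adjusted p of 0.0552.

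Tcf7 encodes TCF1, a TCF/LEF factor that is itself a Wnt target, and lies on chromosome 11 from 52252371 to 52283014. It was at 44.5, 48.3 and 41.0 CPM in VDRgem, against 93.3, 76.0, 86.8, 101.6 and 97.3 CPM in controls. All VDRgem libraries were far below the lowest control, with a log2 fold change of -1.03 (SE 0.21, edgeR adjusted p = 0.0142). An antisense gene, A630014C17Rik, overlaps Tcf7 and held 0.727 to 2.37 CPM. Without VDRgem 1 the log2 fold change was -1.04 and the adjusted p 0.0789.

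Lef1 encodes a factor of the same family, needed for tooth formation in the mouse embryo, and lies on chromosome 3 from 131110471 to 131224356. It was at 11.9, 12.2 and 17.8 CPM in VDRgem, against 23.2, 25.3, 22.7, 19.1 and 25.3 CPM in controls. VDRgem 3 came close to control 4, the lowest control, but did not reach it. The log2 fold change was -0.72 (SE 0.17, edgeR adjusted p = 0.0212), and the call was lost without VDRgem 1 (adjusted p = 0.121), VDRgem 2 (0.072) or control 5 (0.0514). Tcf7 counts over Lef1 counts gave 2.30 to 3.97 in VDRgem, overlapping 3.00 to 5.32 in controls (exact two-sided permutation p = 0.321, 0.482 after adjustment over 9 ratio tests).

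**Figure D2:**
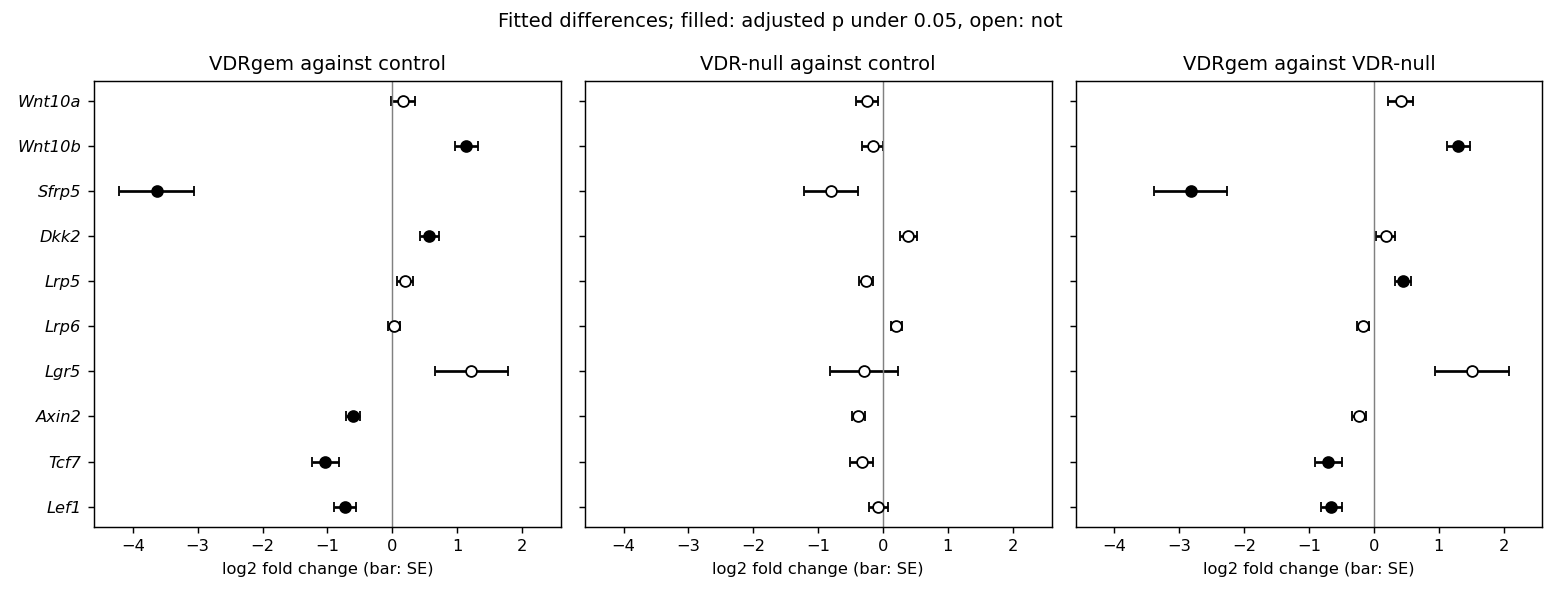
Fitted log2 fold change (horizontal axis, bar for the SE) of the 10 genes in VDRgem against control, VDR-null against control and VDRgem against VDR-null, with filled points for genes that passed. Sfrp5 lies farthest from 0 in VDRgem against control, at -3.63, and the middle panel holds no filled point.

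Ordered by FPKM, levels in VDRgem ran from Wnt10a at 31.6 ± 4.69 and Dkk2 at 18.3 ± 2.19 down to Sfrp5 at 0.574 ± 0.149 and Lgr5 at 0.316 ± 0.248 (SD, n = 3). In VDR-null they ran from Tcf7 at 27.6 ± 8.23 and Wnt10a at 23.8 ± 6.44 down to Lef1 and then Lgr5 at 0.112 ± 0.0662, and in controls from Tcf7 at 34.7 ± 3.81 and Wnt10a at 28.2 ± 4.35 down to Lef1 and then Lgr5 at 0.134 ± 0.0622 FPKM (SD, n = 5 each). In VDRgem the run of Dkk2, Tcf7, Wnt10b, Lrp5 and Lrp6 overlapped from each gene to the next, and so did Sfrp5 and Lgr5. In VDR-null, Tcf7, Wnt10a and Dkk2 overlapped in this way, as did Lrp6 and Lrp5, and Axin2, Wnt10b, Sfrp5 and Lef1. In controls, Tcf7 overlapped Wnt10a, the run of Dkk2, Lrp5 and Lrp6 overlapped, and so did that of Sfrp5, Axin2 and Wnt10b. Wnt10b thus had rank 4 in VDRgem and rank 8 in controls, and Sfrp5 rank 9 in VDRgem and rank 6 in controls. These ranks rest on the length of merged exons. For Lef1 that is 8788 bases, against 3656 in its longest transcript. For Lgr5 it is 10264 against 4793, and for Wnt10b 3401 against 2709. The order between genes may change with another length, which was not tried.

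**Figure D3:**
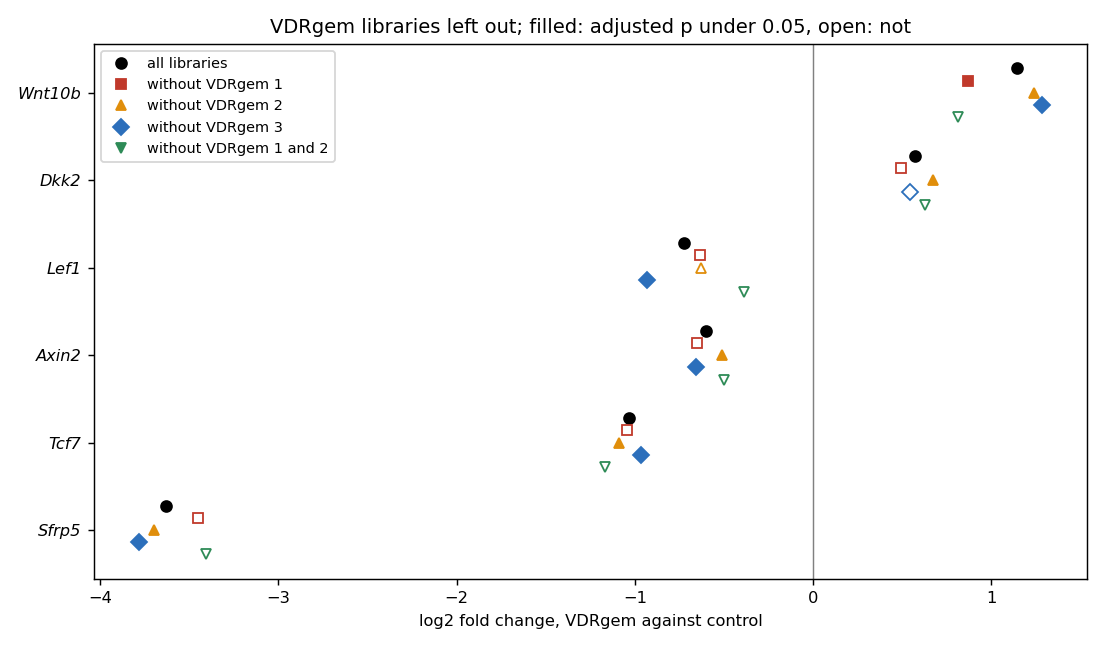
Log2 fold change in VDRgem against control (horizontal axis) of the 6 genes that passed, with all libraries and without VDRgem 1, 2, 3, or 1 and 2 together (filled: adjusted p under 0.05). Sizes keep their sign throughout, while without VDRgem 1 only Wnt10b, at 0.87, is filled, and with VDRgem 3 alone none is.

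Without VDRgem 1, the library richest in keratinocyte markers, 1 of the 6 genes still passed, Wnt10b at a log2 fold change of 0.87 (edgeR adjusted p = 0.0407), while 66 of all tested genes passed in place of 1537. With VDRgem 3 alone, the library with the fewest keratinocyte markers of its group, none passed. The log2 fold changes were then -3.40 for Sfrp5, -1.16 for Tcf7, -0.50 for Axin2, -0.39 for Lef1, 0.62 for Dkk2 and 0.81 for Wnt10b, where the lone library was taken to vary like the other groups. With the keratinocyte level as a covariate no gene of the whole table passed, although 2473 had an unadjusted p under 0.05. The 6 genes were then at -3.48, -1.19, -0.61, -0.37, 0.64 and 0.85 in the same order. In bulk tissue, fewer cells of a type and less RNA per cell cannot be told apart.

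**Figure D4:**
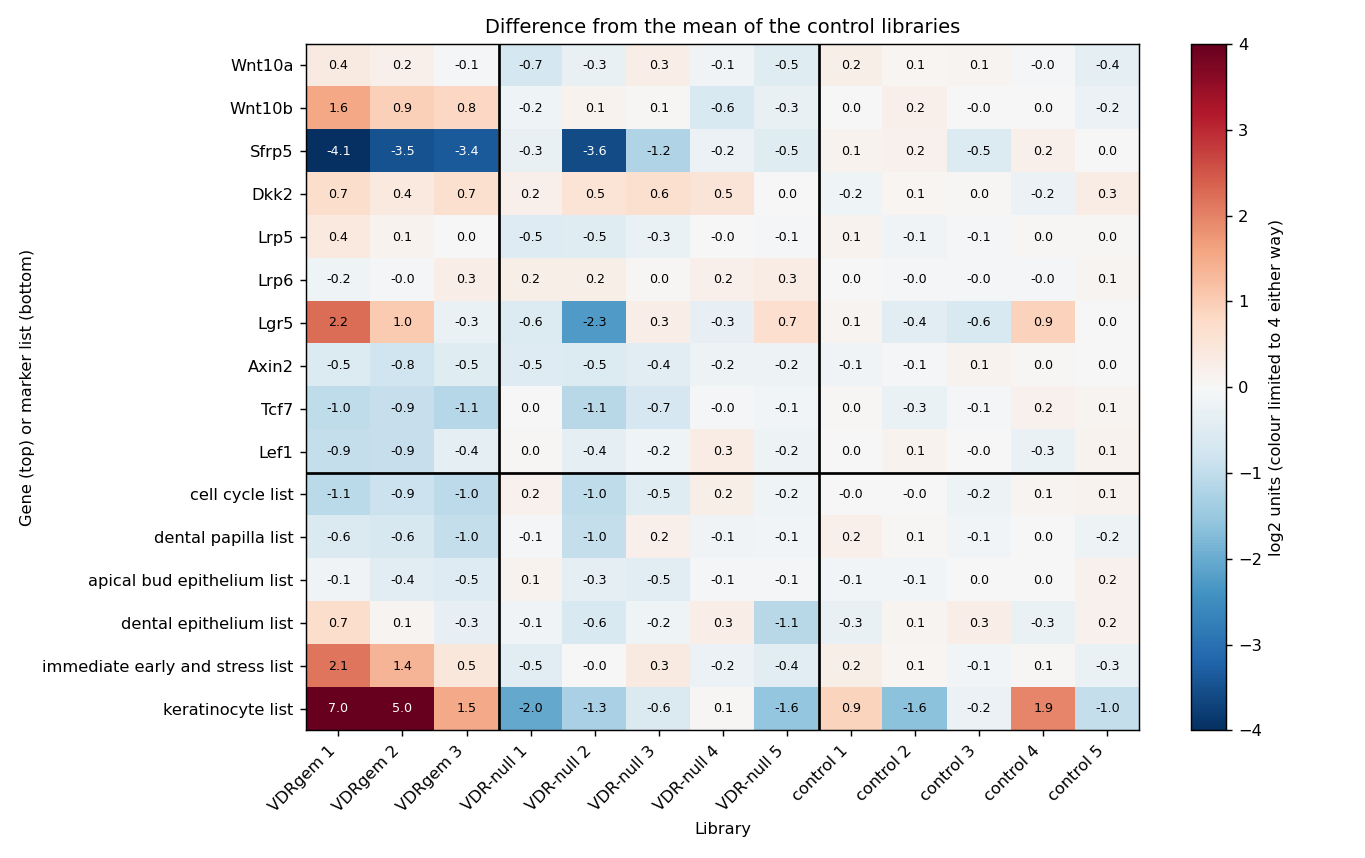
Difference from the control mean in log2 units (colour and printed value) for the 10 genes and 6 marker lists (rows) in each of the 13 libraries (columns: VDRgem, VDR-null, control). Sfrp5 and Tcf7 are low in the VDRgem libraries and in VDR-null 2. By mean log2 CPM, the cell cycle and dental papilla lists are low in the same libraries, and the keratinocyte list is at 7.0, 5.0 and 1.5 in VDRgem 1, 2 and 3.

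All 15 cell cycle genes fell in VDRgem, where 3.82% of all tested genes did, at a median log2 fold change of -1.06. None fell without VDRgem 1, where the median was -0.97. Their counts of falls were also lower without VDRgem 2 (9), control 1 (10), control 2 (9), control 4 (8) and control 5 (6). Sfrp5 and Tcf7 were lowest in the libraries with the lowest cell cycle level, VDR-null 2 included. The dental papilla list was lowest in the same libraries. The part of cell division or of papilla cells in the levels of Sfrp5 and Tcf7 was not tested. Of the 9 dental papilla markers, 4 fell in VDRgem, and of the 7 markers of apical bud epithelium 1 rose and 1 fell. Among all tested genes 4.8% rose and 3.82% fell. Immediate early and stress genes were at a mean log2 CPM of 3.07 to 4.74 in VDRgem, 2.15 to 2.95 in VDR-null and 2.34 to 2.84 in controls, and their part in the Wnt levels was not tested.

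In VDR-null incisors, 0 of the 10 genes passed against controls by edgeR, where 0.678% of all tested genes rose and 0.656% fell (1.33% in all), and 4 of the 10 had an unadjusted p under 0.05, as did 22.8% of all genes. Axin2 came nearest. It was at 25.1, 24.7, 26.7, 31.5 and 31.3 CPM in VDR-null 1 to 5, all below the lowest control at 32.8 CPM. Such a separation of the groups was seen in 7.09% of tested genes. The log2 fold change was -0.38 (SE 0.09, edgeR adjusted p = 0.0571), and the exact two-sided permutation test on log2 CPM gave p = 0.00794, the smallest that 5 libraries against 5 allow. Axin2 passed by DESeq2 (adjusted p = 0.006), and by edgeR without VDRgem 1 (0.0464), VDRgem 3 (0.041) or VDR-null 4 (0.0442).

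The libraries of VDR-null differed in base composition from controls, with a median log2 fold change of 0.18 in the tenth of genes with the lowest transcript GC content and -0.30 in the tenth with the highest. With an offset for that trend Axin2 was at -0.24 (edgeR adjusted p = 0.236). Dkk2 was at 52.4, 65.8, 70.7, 64.5 and 46.2 CPM in VDR-null, against 38.3 to 55.8 CPM in controls. The groups overlapped, with a log2 fold change of 0.39 (SE 0.13, edgeR adjusted p = 0.0982) and a DESeq2 adjusted p of 0.0467.

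The co-receptors differed from controls in opposite directions in VDR-null, neither past the test. Lrp5 was at 69.8, 72.9, 83.9, 99.2 and 97.1 CPM in VDR-null, against 91.8 to 110 CPM in controls (log2 fold change -0.26, SE 0.11, edgeR adjusted p = 0.174). Lrp6 was at 153, 154, 133, 151 and 159 CPM in VDR-null, against 126 to 139 CPM in controls (log2 fold change 0.21, SE 0.08, edgeR adjusted p = 0.154). The ratio of Lrp5 to Lrp6 counts was 0.456, 0.474, 0.630, 0.657 and 0.609 in VDR-null, against 0.726 to 0.830 in controls. Every VDR-null library was below every control, with an exact two-sided permutation p of 0.00794, or 0.0714 after adjustment over the 9 ratio tests. This ratio too was chosen after values were seen, which the adjustment does not cover. In VDRgem the same ratio was 1.14, 0.882 and 0.651, on either side of the controls (exact permutation p = 0.464, adjusted 0.597). The longest transcripts of Lrp5 and Lrp6 have a GC content of 54.7% and 46.0%. With the GC offset the VDR-null differences were -0.12 for Lrp5 (edgeR adjusted p = 0.519) and 0.13 for Lrp6 (0.37).

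Apart from the rare Lgr5, Sfrp5 and Tcf7 had the largest coefficients of variation within VDR-null, 55.5% and 29.8%. Sfrp5 was at 10.9, 1.11, 5.82, 11.4 and 9.59 CPM and Tcf7 at 91.7, 42.4, 57.2, 88.2 and 83.1 CPM in VDR-null 1 to 5. VDR-null 2 was the lowest for both and lay inside the VDRgem range, while VDR-null 1, 4 and 5 were among the controls. The log2 fold changes against controls were -0.81 for Sfrp5 (SE 0.42, edgeR adjusted p = 0.262) and -0.33 for Tcf7 (SE 0.17, adjusted p = 0.278). Wnt10b was at 16.4, 20.6, 19.4, 12.3 and 15.0 CPM in VDR-null, inside or below the control range (log2 fold change -0.16, SE 0.16, edgeR adjusted p = 0.582). Wnt10a was at 42.0 to 83.7 CPM, Lef1 at 17.9 to 28.1 CPM and Lgr5 at 0.269 to 2.06 CPM in VDR-null, each overlapping the controls.

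Set directly against VDR-null, VDRgem had 2 of the 10 genes higher and 3 lower, where 10.6% and 8.18% of all tested genes passed. The controls do not enter this comparison other than through the shared spread and the gene filter. Wnt10b was higher in VDRgem, at 33.1 to 55.1 CPM against 12.3 to 20.6 CPM in VDR-null, with no overlap (log2 fold change 1.30, SE 0.18, edgeR adjusted p = 0.0016). It passed in each fit that left out 1 library. Lrp5 was also higher, at 102 to 133 CPM in VDRgem and 69.8 to 99.2 CPM in VDR-null (log2 fold change 0.45, SE 0.12, edgeR adjusted p = 0.0231). The groups did not overlap, but with the GC offset the log2 fold change was 0.22 (edgeR adjusted p = 0.142).

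Lef1, Sfrp5 and Tcf7 were lower in VDRgem than in VDR-null. Lef1 was at 11.9 to 17.8 CPM in VDRgem and 17.9 to 28.1 CPM in VDR-null, just without overlap (log2 fold change -0.65, SE 0.17, edgeR adjusted p = 0.0183). Sfrp5 (log2 fold change -2.82, SE 0.56, adjusted p = 0.0068) and Tcf7 (-0.70, SE 0.21, adjusted p = 0.0326) passed although VDR-null 2 lay inside the VDRgem range for both, and their exact permutation p was 0.107 each. Groups did not overlap for 3 of the 10 genes, Wnt10b, Lrp5 and Lef1, against 18.0% of all tested genes. Axin2 did not pass between the mutants (log2 fold change -0.22, SE 0.11, edgeR adjusted p = 0.16), nor did Lgr5 (1.51, SE 0.57, adjusted p = 0.0758).

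These calls between the mutants rested on few libraries. Without VDRgem 1, Wnt10b alone of the 5 passed, and without VDRgem 2, Wnt10b and Sfrp5 passed. Over all tested genes 18.8% passed with all libraries. That count also varied widely when a library was left out, as the closing section gives. The adjusted p of Lrp5 was 0.171 without VDRgem 1 and 0.0515 without VDRgem 2, that of Lef1 0.104 and 0.0847, and that of Sfrp5 0.052 without VDRgem 1. Tcf7 was lost on leaving out VDRgem 1, 2 or 3 or VDR-null 1, 4 or 5 (adjusted p from 0.0628 to 0.119). Other genes of the 10 passed in some fits. On leaving a library out these were Wnt10a without VDR-null 3 (edgeR adjusted p = 0.0219), and Lrp6 (0.023) and Lgr5 (0.0202) without VDRgem 3. With all libraries kept, Wnt10a passed with 1 surrogate variable (edgeR adjusted p = 0.0221). Lgr5 passed by DESeq2 (adjusted p = 0.0345) and by edgeR with 1 surrogate variable (0.0465). Axin2 passed by edgeR under scaling by totals (adjusted p = 0.0335) and with the GC offset (0.025).

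Beyond the 10 genes, 85 further genes of the pathway were listed by role, of which 81 could be tested. Wnt1, Wnt8a, Wnt9b and Dkk4 had too few counts. In VDRgem 8 of the 81 rose and 4 fell against controls, where 4.8% and 3.82% of all genes did. None of the 81 passed in VDR-null, where 1.33% of all tested genes passed. The split in VDRgem was 4 risen and 12 fallen when libraries were scaled by totals alone, and 8 and 8 with the GC offset. Without VDRgem 1 none of the 81 passed by edgeR. The count of rises, 8 with all libraries, was 4 without control 1, 4 without control 2, 3 without control 4 and 2 without control 5, and the count of falls, 4 with all libraries, was 7 without VDR-null 2 and 7 without VDR-null 3. Their median log2 fold change was 0.09 in VDRgem, against 0.00 over all tested genes, and -0.01 in VDR-null.

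**Figure D5:**
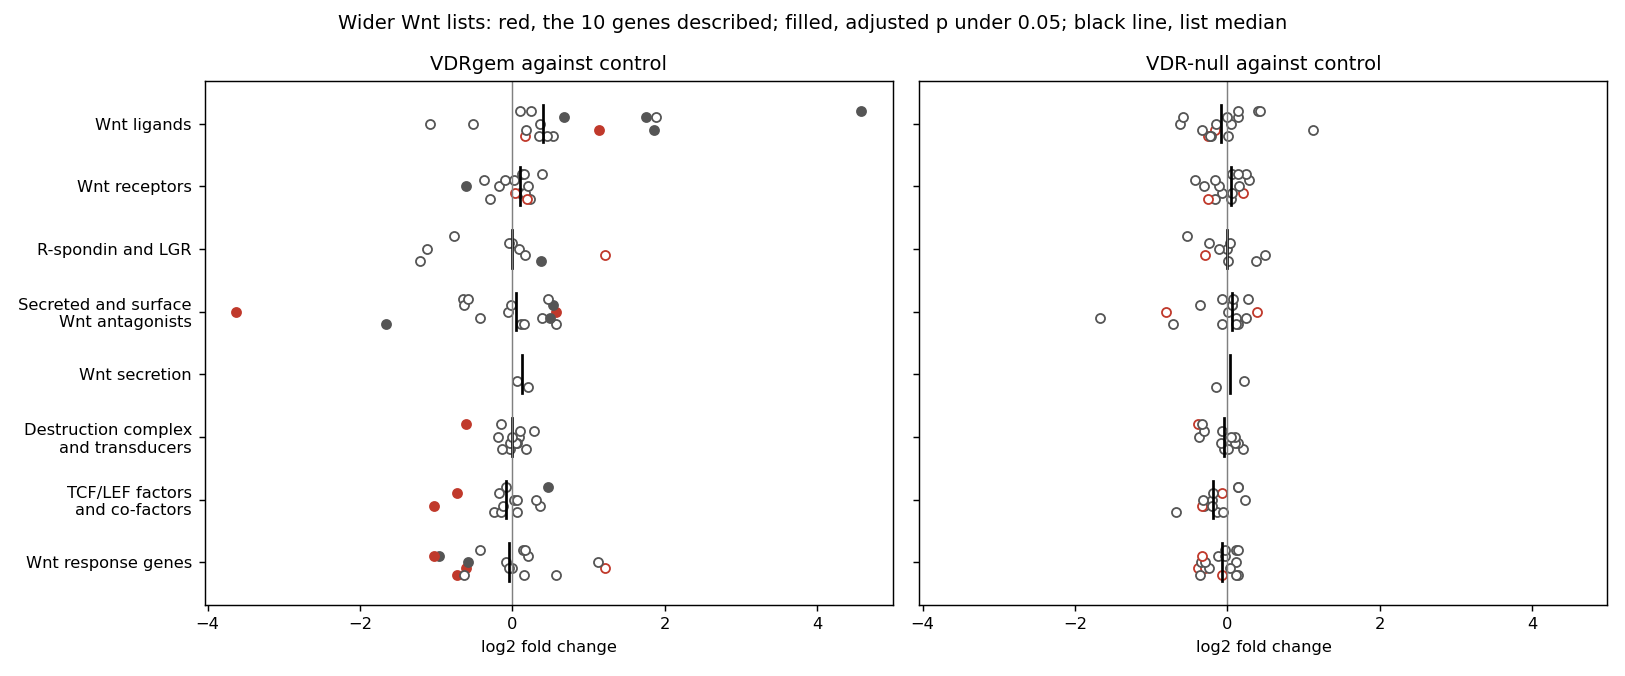
Log2 fold change (horizontal axes) of the tested genes of 8 Wnt lists (rows) in VDRgem against control and VDR-null against control, with the 10 genes described in red, filled points for genes that passed and a black line at each list's median. The ligands lie mostly to the right in VDRgem, with a median of 0.41, and the right panel holds no filled point.

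Of the 16 ligands tested, 5 rose in VDRgem and none fell, with a median log2 fold change of 0.41, where 4.8% of all tested genes rose. The count of rises was 1 without VDRgem 1, 3 without control 1, control 2 or control 4, and 2 without control 5. With the keratinocyte covariate none rose and the median was 0.13. No gene of the whole table passed with that covariate, so the absence of rises says nothing particular to the ligands. The 5 that rose with all libraries were Wnt10b, Wnt7b, Wnt2, Wnt3 and, named after its values were seen, Wnt4. Wnt7b, a ligand made by many epithelia, was at 88.2, 34.5 and 20.8 CPM in VDRgem, against 10.1 to 16.9 CPM in controls (log2 fold change 1.76, SE 0.34, edgeR adjusted p = 0.0118). Its order over the VDRgem libraries was that of the keratinocyte markers and, by mean log2 CPM, of the other lists named with Wnt10b. Their part in the level of Wnt7b was not tested. Without VDRgem 1 it was at 0.96 (edgeR adjusted p = 0.0782). Wnt2 was at 5.31, 0.220 and 0.208 CPM in VDRgem and at most 0.232 CPM in controls, so that 1 library carried its log2 fold change of 4.58 (SE 1.05, edgeR adjusted p = 0.0205), which was 1.43 without VDRgem 1 (adjusted p = 0.419). Wnt3, at 0.396 to 0.921 CPM in VDRgem and 0.0632 to 0.333 CPM in controls, was rare in both (log2 fold change 1.85, SE 0.50, edgeR adjusted p = 0.0347). Wnt6, the neighbour of Wnt10a on chromosome 1, did not pass (log2 fold change 0.18, edgeR adjusted p = 0.689).

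Of the 16 antagonists tested, 3 rose and 2 fell in VDRgem, where 4.8% and 3.82% of all tested genes did. Scaling by totals turned this balance to 1 risen and 5 fallen. Without VDRgem 1 none of the 16 passed by edgeR, and 1 rose and 2 fell without control 1, control 2 or control 4, while 4 rose and 4 fell without VDR-null 2. Sfrp2, which like Sfrp5 encodes a secreted Frizzled-related protein, was at 94.4, 117 and 83.5 CPM in VDRgem, against 248 to 367 CPM in controls (log2 fold change -1.66, SE 0.30, edgeR adjusted p = 0.0098). Both genes of that family that fell did so without overlap with controls, while Sfrp4, a further member, rose by a log2 fold change of 0.49 (SE 0.12, edgeR adjusted p = 0.0265), which was 0.32 and lost its call under scaling by totals (adjusted p = 0.0525). Dkk3 rose alongside Dkk2, to 285 ± 19.9 CPM in VDRgem, against 196 ± 16.4 CPM in controls (SD, n = 3 and n = 5, log2 fold change 0.54, SE 0.11, edgeR adjusted p = 0.0155). Dkk3 belongs to the Dkk family by sequence but is not known as an Lrp antagonist.

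Of the 15 receptors tested, Fzd7 alone passed in VDRgem, where 8.62% of all tested genes passed. This Frizzled receptor was at 58.8, 68.8 and 72.5 CPM in VDRgem, against 94.3 to 107 CPM in controls (log2 fold change -0.61, SE 0.10, edgeR adjusted p = 0.0088). Of the 9 R-spondin and LGR genes, Lgr4, the R-spondin receptor related to Lgr5, rose by a log2 fold change of 0.38 (SE 0.10, edgeR adjusted p = 0.0338). It was at 77.4 to 91.8 CPM in VDRgem and 62.6 to 71.1 CPM in controls, without overlap. Under scaling by totals its log2 fold change was 0.21 (edgeR adjusted p = 0.149), and none of the 9 rose without VDRgem 1, VDRgem 3, control 1, control 2, control 4 or control 5. Axin2 was the only called gene among the 13 of the destruction complex and transducers. Among the 13 TCF/LEF factors and co-factors, Tle1, which encodes a co-repressor of TCF proteins, rose by 0.47 on the log2 scale (SE 0.12, edgeR adjusted p = 0.0265) while Tcf7 and Lef1 fell. Under scaling by totals Tle1 was at 0.30 (edgeR adjusted p = 0.0915), and none of these 13 rose without VDRgem 1, control 3, control 4 or control 5.

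The 17 response genes tested had a median log2 fold change of -0.05 in VDRgem. Of them, 5 fell and none rose, where 3.82% and 4.8% of all tested genes did. The 5 were Axin2, Tcf7 and Lef1 and, outside the 10 genes, Ccnd1 and Bambi. Ccnd1, which encodes the cell cycle regulator cyclin D1, was at 48.8, 55.8 and 52.4 CPM in VDRgem, against 91.7 to 110 CPM in controls (log2 fold change -0.96, SE 0.19, edgeR adjusted p = 0.0123). Bambi, a transmembrane pseudoreceptor of the TGF-beta family, was at 146 to 191 CPM in VDRgem and 232 to 273 CPM in controls (log2 fold change -0.58, SE 0.11, edgeR adjusted p = 0.013). Without VDRgem 1 none of the 17 passed by edgeR, with Ccnd1 at -0.92 and Bambi at -0.49.

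Between the mutants, 11 of the 81 further genes were higher in VDRgem and 7 lower, where 10.6% and 8.18% of all tested genes were. That split was 7 and 12 under scaling by totals and 5 and 10 with the GC offset. It was 2 and 2 without VDRgem 1, 8 and 4 without VDRgem 2, 17 and 8 without VDRgem 3, and 7 and 5 without VDR-null 1. Wnt11, a ligand best known from Wnt signalling that works without beta-catenin, was at 31.1 to 41.7 CPM in VDRgem and 12.9 to 22.9 CPM in VDR-null (log2 fold change 0.98, SE 0.16, edgeR adjusted p = 0.0034). Controls were at 23.0 to 33.0 CPM, above every VDR-null library and overlapping VDRgem. Fzd3, a Frizzled receptor, was lower in VDRgem, at 39.7 to 55.3 CPM against 64.0 to 86.6 CPM in VDR-null (log2 fold change -0.66, SE 0.12, edgeR adjusted p = 0.0054). Ctnnb1, which encodes beta-catenin itself, was at 1050 to 1078 CPM in VDRgem and 1174 to 1383 CPM in VDR-null (log2 fold change -0.28, SE 0.09, edgeR adjusted p = 0.0387), a call lost without VDRgem 1 (adjusted p = 0.11). Bcl9l, a beta-catenin co-activator, was higher in VDRgem by 0.67 on the log2 scale (SE 0.15, edgeR adjusted p = 0.0116), a call also lost without VDRgem 1 (adjusted p = 0.0889).

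Over the 13 libraries, the gene most like each of the 10 was sought by Pearson correlation of log2 CPM among the 14169 tested genes that averaged 1 CPM or more. The libraries share depth, composition and tissue differences, so these values are descriptions. Wnt10a was most like its chromosomal neighbour Wnt6 (r = 0.98). Tcf7 was followed by Ecel1, Cenph and Knstrn (r = 0.98 each) and Sfrp5 by Ccnf, Rtkn2 and Mpped1 (r = 0.98 each). Cenph and Knstrn encode proteins of the chromosome segregation machinery and Ccnf encodes cyclin F. Lef1 was most like Zfp367, Bard1 and E2f2 (r = 0.92 to 0.94), and E2f2 encodes a cell cycle transcription factor. Wnt10b was most like Eps8l1 (r = 0.96), Axin2 like Zbtb8a (r = 0.93), Dkk2 like Has2 (r = 0.91), Lrp5 like Bcl9l (r = 0.94), Lrp6 like L3mbtl3 (r = 0.96) and Lgr5 like Il4ra (r = 0.90).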

How the data were processed

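The authors deposited whole-number read counts per gene, unscaled, for 34709 Ensembl genes in 13 libraries, made with bcl2fastq 2.20.0.422, STAR 2.5.3a and HTSeq 0.6.1p1 on mm10, per the submitters' processing notes. Libraries were poly-A selected and stranded, per the labels' protocols. With annotation release, counting mode and strand setting not given in the sources used here, genes that overlap on opposite strands may share reads. No library was a copy of another (chi-square over degrees of freedom at least 15.2 between replicates). Total counts ran from 20405188 to 87783466.

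Symbols, lengths, GC content and positions came from GENCODE M21 (GRCm38, the assembly called mm10), and promoters from RefSeq (GRCm38.p6). FPKM is CPM per kilobase of merged exons. edgeR 4.0.16 in R 4.3.3 fitted all 13 libraries together after TMM scaling and filterByExpr (minimum count 10), with Benjamini-Hochberg adjustment over 17837 genes in each of 3 comparisons. Marker lists were summarised as the mean of log2 CPM (prior count 2) over their genes. Ratios of counts within a library were chosen after values were seen and tested by exact permutation (scipy 1.17.1). Beyond the 10 genes, those named were chosen among the up to 3 called genes with the smallest p per list and comparison, with Wnt6 added as the neighbour of Wnt10a and Wnt4 after its values were seen.

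Alternatives were DESeq2 1.42.0, limma-voom (limma 3.58.1), other scalings and filters, robust dispersion, 1 surrogate variable (sva 3.50.0), fits of only the groups compared, a keratinocyte covariate, other thresholds and leaving out libraries. A GC offset (spline with 5 degrees of freedom) was added after results were seen. The fit was tested on simulated counts. The 10 genes, the lists and the tests were chosen with earlier results of these data known.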

Additional observations from a re-analysis of the deposited data

How the results depend on the processing

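Relative to controls, the 6 genes called in VDRgem kept their direction in all 25 alternative fits, while the call depended on the setting. Of the 10 genes, 6 were called with all libraries, 2 at an adjusted p under 0.01, 0 with the keratinocyte covariate, 0 with VDRgem 1 and 2 both left out, and 1 to 6 when a library was left out. In VDR-null 0 were called, with 1 at a mean of at least 1 CPM, 2 by DESeq2, 1 in the fit of only these groups, 1 with a surrogate variable, 1 without VDRgem 1 and 2, 2 at an adjusted p under 0.1 and 0 to 1 leaving out a library. Between the mutants 5 were called, with 2 in the fit of only these groups, 0 with the covariate, 0 without VDRgem 1 and 2, 2 at 0.01, and 1 to 6 leaving out a library.

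Over all genes, 1537 were called in VDRgem against control, 2320 by DESeq2, 981 by limma-voom, 0 with the covariate (2473 at an unadjusted p under 0.05), 5 without VDRgem 1 and 2, 2479 at 0.1, 138 at 0.01, and 66 to 2021 leaving out a library. In VDR-null 238 were called, 423 at a mean of at least 1 CPM, 1647 by DESeq2, 703 in the fit of only these groups, 868 with a surrogate variable, 57 with the covariate, 676 without VDRgem 1 and 2, 45 with the GC offset, 1607 at 0.1, 6 at 0.01, and 6 to 685 leaving out a library. Between the mutants 3346 were called, 753 in the fit of only these groups, 14 with the covariate, 32 without VDRgem 1 and 2, 5127 at 0.1, 750 at 0.01, and 434 to 4610 leaving out a library.

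Signs that turned belonged to differences that had not passed. In VDRgem against control these were Wnt10a (-0.0069 by library totals, -0.28 with the covariate, -0.10 without VDRgem 1 and 2), Lrp5 (-0.13 with the covariate), Lrp6 (-0.13 by totals, -0.0049 with a surrogate variable, -0.10 to 0.11 leaving out a library, negative without VDRgem 3) and Lgr5 (-0.73 with the covariate, -0.40 without VDRgem 1 and 2). In VDR-null they were Wnt10a (0.23 with the GC offset) and Lgr5 (0.22 with the covariate, -0.62 to 0.024 leaving out a library, positive without control 4). Between the mutants they were Wnt10a (-0.12 with the covariate, -0.22 with the GC offset), Lrp6 (0.13 with the covariate, 0.059 without VDRgem 1 and 2) and Lgr5 (-0.95 and -0.10 in the same fits). The cause was not tested in any of these. No paired analysis was possible because the labels give no replicate numbers, and those used here only follow the order of the samples. With 3 VDRgem libraries, exact permutation cannot give a p below 0.0357.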
